A study of Phaseolus vulgaris with 18 samples.

Results

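Common bean (Phaseolus vulgaris, line 4004) grains and pods were compared in how their transcript levels changed between 10 and 20 DAF, taken to mean days after flowering, a term left unexplained in the labels. The groups were grain at 20 DAF, grain at 10 DAF, pod at 20 DAF and pod at 10 DAF, with 3 libraries each, so 12 of the 18 libraries of the series entered the comparison. The remaining 6 libraries, grain and pod at 15 DAF, were used only to see where the chosen genes stood between these stages. All groups share the same bean line and no treatment is given. Whether the 3 libraries of a group are separate plants is not stated, and the p-values then reflect the spread among these libraries alone, which may be technical. The quantity tested for each gene was the grain change minus the pod change, called the tissue difference below, on log2(TPM + 1) after median-ratio scaling of the libraries. TPM is a transcript level corrected for gene length and given as a share of its library. Of the 27420 genes in the table, 19573 had at least 1 TPM in at least 3 of the 12 libraries and were tested.

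A bean pod is the ripened ovary wall and encloses the seeds. During filling, the seed cells stop dividing, enlarge and take up sugars and amino acids delivered largely through the pod, and they store them as globulin proteins, starch and a little oil before they dry out. The pod wall over the same days finishes elongation, lays down fibre and parchment walls, carries out some photosynthesis and later returns nitrogen to the seeds. Both organs therefore leave growth by cell division, but toward different ends.

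Grain libraries carried storage cupin and NF-YB6 transcripts, seed markers that were low in pods. The summed level of the 8 storage cupin genes was 178100 to 325000 scaled TPM in grain at 20 DAF and 125 to 1803 in grain at 10 DAF, against 16.5 to 34.5 in pods at 20 DAF and 11.2 to 65.9 in pods at 10 DAF. NF-YB6 (Phvul.007G234800), a subunit of a transcription factor of the embryo in Arabidopsis, was at 172, 126 and 519 scaled TPM in grain at 20 DAF and 465, 397 and 524 at 10 DAF. It did not exceed 0.998 in any pod library. The 50 most abundant genes took 58.4% to 72.8% of the TPM in grain at 20 DAF, against 15.4% to 17.2% in grain at 10 DAF, 17.8% to 24% in pods at 20 DAF and 22.7% to 26.1% in pods at 10 DAF. The scaling factors were accordingly 0.369 to 0.581 in grain at 20 DAF and 1.10 to 1.37 in the other 9 libraries. Within groups, r between libraries was 0.905 to 0.975 across genes. Grain 20 DAF replicate 3 was closest to a grain library of 15 DAF (r = 0.968, against 0.949 and 0.955 within its group), and the pod 10 DAF library c2 to a pod library of 15 DAF (r = 0.94, against 0.927 and 0.929).

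The tissue difference was called for 3578 genes, 18.3% of those tested, where a call needed a limma adjusted p under 0.05 and a size of 1 or more in log2. It was higher in 1483 genes (7.58%) and lower in 2095 (10.7%). In grain, 1597 genes rose (8.16%) and 3207 fell (16.4%) between the stages, and in pods 765 rose (3.91%) and 1330 fell (6.8%). Most genes called in 1 tissue were not called in the other. For 2504 of them (12.8% of genes tested) the tissue difference was not called, so unequal changes are not shown there. The split of the tissue difference depends on the scaling. With values as deposited it was 679 higher and 10637 lower, with a median over all genes of -1.27 in place of -0.14 after scaling. With the 50 most abundant genes left out before rescaling it was 1122 higher and 2785 lower, with a median of -0.40. Changes below are therefore relative to the median gene after scaling, and values under another scaling stand beside the lists whose direction turns.

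Genes called as moving in opposite directions were few. The class needs a call in each tissue and in the tissue difference, so opposite movement can be missed. Among the 3578 genes, 82 rose in grain and fell in pods, 0.419% of all genes tested, and 46 fell in grain and rose in pods, 0.235%. A further 65 moved the same way in both tissues by unequal amounts. The largest share, 2240 genes, had a called change in grain only, 655 in pods only, and 490 had a called difference with neither change called. Genes that moved alike were those called in the same direction in both tissues with a tissue difference under 1 in size. They numbered 120 upward (0.613%) and 339 downward (1.73%). Of these, 8 upward and 28 downward genes had a 95% interval of the tissue difference wholly between -1 and 1. For the others the data do not exclude a difference of a log2 of 1. The standard error of the tissue difference had a median of 0.408 over all genes. Single libraries moved these counts. Without the pod 10 DAF library c1, 46 genes rose in grain and fell in pods, 30 did the reverse, 65 rose alike and 209 fell alike, with 1262 genes called in pods in place of 2095. Without grain 10 DAF replicate 2, 54 genes rose in grain and fell in pods, and without pod 20 DAF replicate 1, 78 rose alike and 215 fell alike. Few members held throughout when each of the 12 libraries was left out in turn. Then 27 of the 82, 18 of the 46, 35 of the 120 and 111 of the 339 genes kept their class in every fit.

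Genes that fell in both tissues, alike or not, numbered 476. This was 14.8% of the genes that fell in grain, where 6.8% of all genes tested fell in pods. It was 35.8% of those that fell in pods, where 16.4% of all genes tested fell in grain. Genes that rose in both numbered 146. This was 9.14% of the genes that rose in grain, where 3.91% of all genes tested rose in pods. It was 19.1% of those that rose in pods, where 8.16% of all genes tested rose in grain. More decreases than increases were called in each tissue, so the larger number of shared decreases says nothing on its own. Over all 19573 genes the grain change and the pod change correlated at r = 0.226 (rho = 0.268), a description only, since genes are not independent.

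**Figure D1:**
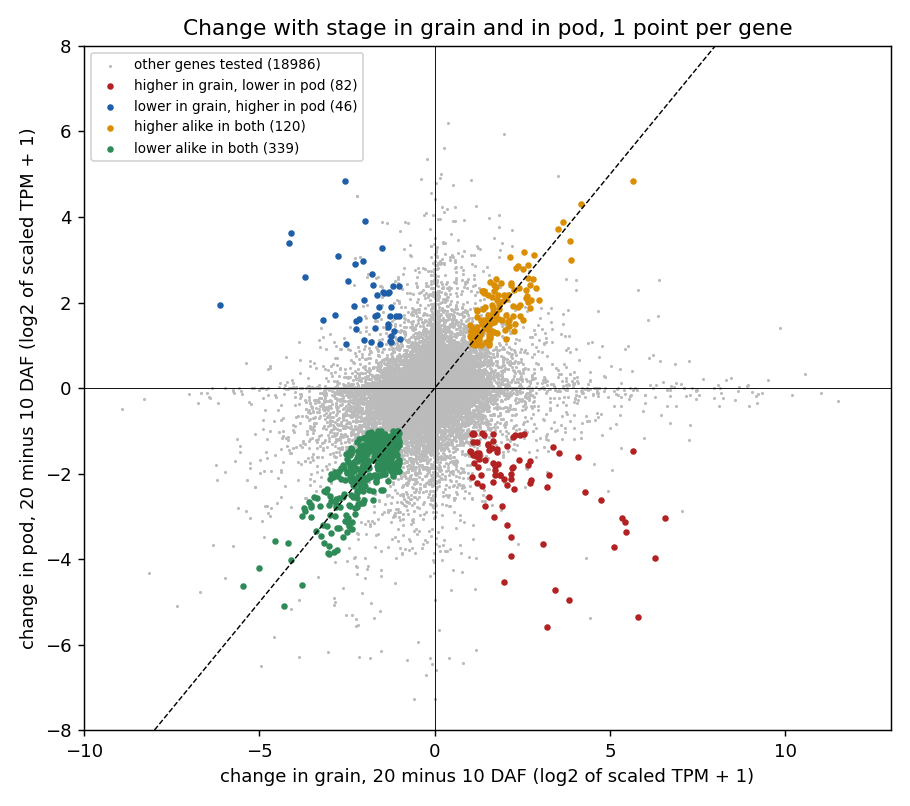
Change in grain (x axis, 20 minus 10 DAF) against change in pods (y axis, 20 minus 10 DAF), both in log2 of scaled TPM + 1, with 1 point per tested gene. The 82 genes that rose in grain and fell in pods lie at lower right, the 46 that did the reverse at upper left, and the 120 and 339 genes that moved alike along the dashed line of equal change.

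The 82 genes that rose in grain and fell in pods had a median grain change of 1.89 and a median pod change of -1.84. These values chose the genes, so they describe the group and support nothing further. Descriptions were given for all but 10 of them. They include a protease inhibitor, an oleosin, a desiccation-induced protein, a transcription factor of the abscisic acid response, starch-handling enzymes and a set of wall enzymes. At 20 DAF the mean level was higher in grain than in pods for 81 of the 82, and at 10 DAF for 23. Choosing genes that rise in grain and fall in pods favours this order, and the share over all genes was not counted. With values as deposited, 72 of the 82 still had opposite signs in both tissues and 23 still met all 3 calls. The group also leans on single libraries. Pod 10 DAF c1 was the highest of its group for 64.6% of the 82 genes, against 31.9% of all genes tested, and without it 44 of the 82 kept the class.

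Some of the 82 genes belong to families of stored or desiccation proteins, although none was on the storage cupin or LEA and dehydrin lists. A Kunitz-type protease inhibitor gene (Phvul.004G129600), of a family that blocks digestive proteases and accumulates in legume seeds, was at 211, 462 and 67.4 scaled TPM in grain at 20 DAF and 3.03, 2.52 and 1.78 in grain at 10 DAF. In pods it was at 0.64, 0.208 and 5.5 at 20 DAF and 344, 21.1 and 116 at 10 DAF. The libraries of the stages did not overlap in either tissue, although the pod 10 DAF library c1 stood far above c2. Its tissue difference was 11.15 ± 1.35 (log2, SE; limma adjusted p = 0.000313), the largest among the 82.

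An oleosin gene (Phvul.008G144500), whose product coats the oil bodies of seeds, was at 8200, 5600 and 4450 in grain at 20 DAF and 77.2, 173 and 178 at 10 DAF. Pods had 1.36, 0.96 and 1.96 at 20 DAF and 33.7, 13.9 and 28.6 at 10 DAF. Every pod library at 20 DAF lay below every pod library at 10 DAF, at levels far under those of the filled grain. The tissue difference was 8.83 ± 0.56 (limma adjusted p = 4.5e-06). It was the only member of the oil body list of 10 genes with opposite changes. A desiccation-induced protein of the VOC superfamily (DSI-1VOC, Phvul.011G065500) followed the same course, with 1110, 1080 and 575 in grain at 20 DAF and 10.4, 35.5 and 38.6 at 10 DAF. Pods had 0.177, 0.459 and 0.974 at 20 DAF and 65.3, 4.96 and 18.8 at 10 DAF. All pod libraries at 20 DAF were below 1 scaled TPM.

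Members of the lipid-transfer and 2S albumin superfamily, small cysteine-rich proteins that bind lipids at surfaces or serve as seed stores, gave 5 of the 82 genes. Their list held 69 tested genes, and 0.419% of all genes tested were in the class. Over the list, 10 rose and 24 fell in grain, and 2 rose and 19 fell in pods. LTP4 (Phvul.008G087000) was at 375, 446 and 295 in grain at 20 DAF and 33.8, 54.9 and 40 at 10 DAF. Pod levels were 88, 64.2 and 151 at 20 DAF and 1770, 857 and 1120 at 10 DAF. Pods thus held more of it than grain at 10 DAF and less at 20 DAF, with no overlap between stages in either tissue (tissue difference 6.74 ± 0.50, limma adjusted p = 9.85e-06). Another member (Phvul.008G113900) was at 289, 162 and 153 in grain at 20 DAF and 33.3, 14.7 and 16.8 at 10 DAF. Its pod values were 0.203, 0.0875 and 0 at 20 DAF and 383, 7.15 and 46.4 at 10 DAF. The pod 10 DAF libraries spread over a wide range, and the gene kept its class in 7 of the 12 fits that left out a library. With values as deposited its grain change was no longer called.

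Seed markers in the pods give the setting for these genes. The cupin sum in pods was 16.5 to 34.5 scaled TPM at 20 DAF and 11.2 to 65.9 at 10 DAF, and the late embryogenesis abundant (LEA) and dehydrin sum was 300.3 to 324 at 20 DAF and 339 to 396 at 10 DAF. In grain the LEA and dehydrin sum was 22350 to 100200 at 20 DAF and 542 to 836 at 10 DAF, so the tissues were closer at 10 DAF. The seed maturation regulator list summed to 2.3 to 4.5 at 20 DAF and 9.1 to 12.5 at 10 DAF in pods. The oil body sum in pods ran the other way, with 55.6 to 123 at 20 DAF and 28.4 to 61.8 at 10 DAF. Whether seed tissue in the pod samples had a part in the pod decreases was not tested.

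Some regulators moved in opposite directions too. ABI5 (Phvul.007G229600), a basic leucine zipper factor that activates LEA genes in response to abscisic acid in Arabidopsis seeds, was at 240, 267 and 52.4 in grain at 20 DAF and 6.8, 4.66 and 3.19 at 10 DAF. Pods had 0, 0 and 0.255 at 20 DAF and 7.94, 3.12 and 6.96 at 10 DAF. All grain libraries at 20 DAF lay above those at 10 DAF, and all pod libraries at 20 DAF were at or near 0 (tissue difference 7.35 ± 0.76, limma adjusted p = 0.000124). TINY2 (Phvul.001G073800), an AP2-type factor related to those that answer cold and drought, was at 59.4, 81.1 and 36.8 in grain at 20 DAF and 6.7, 0.399 and 5.12 at 10 DAF. The pod values were 0, 0.0975 and 0.727 at 20 DAF and 61.7, 10 and 79.4 at 10 DAF. Grain at 20 DAF and pods at 10 DAF therefore had similar levels, and the other groups did not exceed 6.7. Its tissue difference was 8.77 ± 1.07 (limma adjusted p = 0.000327).

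A gibberellin-regulated peptide gene (Phvul.001G025800) was at 7000, 1600 and 1100 in grain at 20 DAF and 233, 204 and 202 at 10 DAF. The pod libraries held 1.87, 0.463 and 0.462 at 20 DAF and 120, 30.3 and 28.4 at 10 DAF. Grain replicate 1 at 20 DAF lay several-fold above the other libraries, and stages did not overlap in either tissue. Among the other regulators of this class were the heat shock factor HSFA2 (Phvul.003G135200, tissue difference 4.27) and SDIR1 (Phvul.011G062500, 4.44), a ubiquitin ligase that promotes abscisic acid signalling in Arabidopsis. IAA8 (Phvul.003G286200, 3.91), a repressor of auxin response genes, belonged to it as well.

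Central metabolism was represented by alcohol dehydrogenase and glutamine synthetase. ADH1 (Phvul.001G067300), which turns acetaldehyde to ethanol when oxygen is short, was at 1750, 2610 and 7350 in grain at 20 DAF and 27, 95.3 and 157 at 10 DAF. Its values in pods were 354, 562 and 919 at 20 DAF and 3800, 6090 and 5290 at 10 DAF. Pods at 10 DAF thus overlapped in level with grain at 20 DAF, while pods at 20 DAF and grain at 10 DAF were far lower (tissue difference 8.55 ± 0.93, limma adjusted p = 0.000161). GLN1;1 (Phvul.008G237500), a cytosolic glutamine synthetase that assimilates ammonium, was at 286, 444 and 588 in grain at 20 DAF and 59.6, 110 and 96.3 at 10 DAF. Pods had 0.186, 0.225 and 0.602 at 20 DAF and 2.16, 1.2 and 2.28 at 10 DAF, so the pod decrease took place at very low levels. A Rossmann-fold protein gene (Phvul.011G061300) had the third largest tissue difference, 9.61 ± 1.24. It kept its class in only 4 of the 12 fits that left out a library, with grain values of 2260, 1250 and 1500 at 20 DAF and 2.32, 22.5 and 62 at 10 DAF.

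Some enzymes of starch and cell walls were also in the class. A family 35 glycosyl transferase (Phvul.004G034400), the family of starch phosphorylase, was at 757, 404 and 442 in grain at 20 DAF and 58.9, 112 and 136 at 10 DAF. In pods it was at 18.2, 12.5 and 23.7 at 20 DAF and 49.4, 50.5 and 78.7 at 10 DAF. DPE1 (Phvul.009G139500), the plastid disproportionating enzyme that reshapes short glucans, had a tissue difference of 4.17 ± 0.66. A pectate lyase (Phvul.001G256900), which cuts pectin, was at 6.39, 31.9 and 8.37 in grain at 20 DAF and 3, 1.2 and 1.88 at 10 DAF. Pods had 0, 0 and 2.76 at 20 DAF and 46, 12.9 and 18.9 at 10 DAF. The libraries of the 2 stages stood apart in each tissue, but the levels were modest. The endoglucanase GH9B8 (Phvul.008G212700, 5.66), the beta-galactosidase BGAL8 (Phvul.005G135933, 4.68) and the galacturonosyltransferase-like gene GATL2 (Phvul.002G026000, 5.26) also had opposite changes. So did the SKU5-like gene sks5 (Phvul.009G021000, 6.51).

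A neighbouring pair of identifiers for dirigent-like proteins, which steer the coupling of phenolic radicals, belonged to the class. Phvul.005G032600 was at 109, 130 and 62.4 in grain at 20 DAF and 0.0487, 0.629 and 0.119 at 10 DAF. Pods were listed at 0 in all 3 libraries at 20 DAF and had 35.7, 7.71 and 11 at 10 DAF. Phvul.005G032500 was at 64.2, 39.8 and 23.7 in grain at 20 DAF and listed at 0 in grain at 10 DAF. In pods it was listed at 0 at 20 DAF and was at 13.2, 3.6 and 7.61 at 10 DAF. No fold is given against groups listed at 0, and how reads were shared between similar genes is not given in the sources used here.

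**Figure D2:**
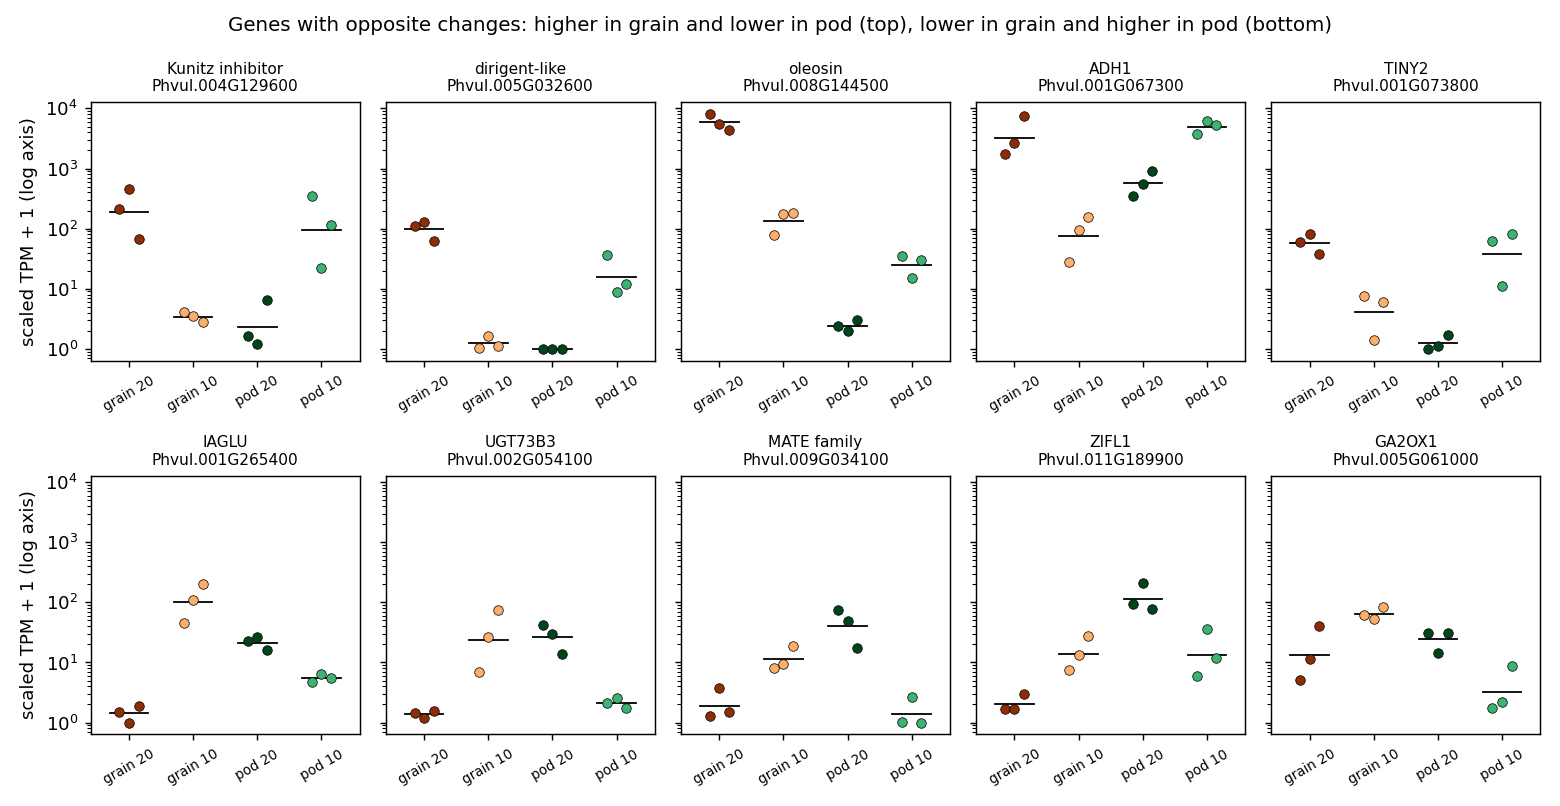
Scaled TPM + 1 (log axis) of 10 genes in the 12 libraries, by group from grain at 20 DAF to pod at 10 DAF; points are libraries and bars the mean on the log scale. In the top row all 5 genes were higher in grain and lower in pods at 20 DAF than at 10 DAF. In the bottom row all 5 were lower in grain and higher in pods at 20 DAF than at 10 DAF.

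The 46 genes that fell in grain and rose in pods had a median grain change of -1.70 and a median pod change of 1.89, again values that chose them. All but 2 had a description. They include glucosyltransferases, membrane transporters and enzymes that inactivate hormones, which were not counted against all genes. The mean level was higher in grain than in pods for 38 of the 46 at 10 DAF and for 2 at 20 DAF. Here too the choice of genes favours the order, and the share over all genes was not counted. All 46 kept their class with values as deposited. Without the pod 10 DAF library c1, 27 of the 46 kept it.

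Enzymes of hormone inactivation included the gene with the largest tissue difference of the 46. IAGLU (Phvul.001G265400), an enzyme that joins the auxin indole-3-acetic acid to glucose, was at 0.488, 0 and 0.916 scaled TPM in grain at 20 DAF and 44.1, 108 and 202 in grain at 10 DAF. The pod had 21.6, 25.6 and 15.1 at 20 DAF and 3.81, 5.43 and 4.51 at 10 DAF. The gene was nearly silent in grain at 20 DAF, and stages did not overlap in either tissue. Its tissue difference was -8.08 ± 0.65 (log2, SE; limma adjusted p = 1.69e-05). Its pod increase of 1.94 is the smaller part of it, and the class was lost in 4 of the 12 fits that left out a library. GA2OX1 (Phvul.005G061000), which inactivates gibberellins by oxidation, was at 4.11, 10.6 and 39.2 in grain at 20 DAF and 59.9, 51.3 and 83.8 at 10 DAF. Pods had 30.5, 13.4 and 29.9 at 20 DAF and 0.715, 1.21 and 7.81 at 10 DAF. Values varied several-fold between libraries of a group, and the gene kept its class in 3 of the 12 such fits (tissue difference -5.18 ± 1.03, limma adjusted p = 0.00571).

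Several genes of the class encode transporters. A MATE efflux protein gene (Phvul.009G034100), of a family that exports organic compounds or loads them into the vacuole, was at 0.293, 2.7 and 0.486 in grain at 20 DAF and 7.11, 8.53 and 18.1 at 10 DAF. Pods held it at 73.4, 48.1 and 16.5 at 20 DAF and 0.0229, 1.71 and 0 at 10 DAF. The pod 10 DAF libraries c1 and c3 were at or near 0, and its tissue difference was -7.40 ± 0.86 (limma adjusted p = 0.000243). ZIFL1 (Phvul.011G189900), a major facilitator known in Arabidopsis for its part in auxin transport and stomatal closure, was at 0.702, 0.695 and 2.03 in grain at 20 DAF and 6.54, 12.2 and 26.5 at 10 DAF. Pods had 92.9, 208 and 75.6 at 20 DAF and 4.91, 34.5 and 10.7 at 10 DAF. A further gene described as ZIFL1 (Phvul.011G189500) moved the same way, with a tissue difference of -4.46. So did both genes described as the high-affinity potassium transporter HAK5 (Phvul.009G212700, -4.19, and Phvul.009G212800, -3.37) and the ABC transporter MRP4 (Phvul.007G143900, -4.79).

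Among glucosyltransferases, which attach glucose to hormones and phenolics, UGT73B3 (Phvul.002G054100) was at 0.467, 0.214 and 0.568 in grain at 20 DAF and 5.96, 25.2 and 74.7 at 10 DAF. In pods it was at 40.8, 29.3 and 13 at 20 DAF and 1.12, 1.58 and 0.718 at 10 DAF. The stages were fully apart in both tissues (tissue difference -7.72 ± 0.96, limma adjusted p = 0.000371). UGT88A1 (Phvul.004G104100) was at 11, 38.8 and 19.5 in grain at 20 DAF and 91.9, 82.3 and 90.2 at 10 DAF. Its pod values were 189, 315 and 192 at 20 DAF and 19.2, 48 and 23.5 at 10 DAF. Grain and pod levels thus changed places, since grain held more at 10 DAF and pods more at 20 DAF. UGT84A1 (Phvul.007G039300) had a tissue difference of -3.81 ± 0.54.

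The remaining members named by the rule were a flavin-binding monooxygenase (Phvul.002G061500), a GroES-like dehydrogenase (Phvul.011G018000), a protein of unknown function (Phvul.006G168600) and another MATE gene (Phvul.003G064300). The monooxygenase was at 2.39, 4.2 and 4.49 in grain at 20 DAF and 34.4, 51.6 and 38.6 at 10 DAF, and at 23.1, 19.1 and 18.8 in pods at 20 DAF and 6.13, 6.54 and 5.41 at 10 DAF. It had the smallest error of the 10, with a tissue difference of -4.79 ± 0.33 (limma adjusted p = 6.07e-06). In the wall and jasmonate lists, IRX8 (Phvul.005G091200), needed for xylan of secondary walls in Arabidopsis, was at 0.0434, 0.244 and 0.0999 in grain at 20 DAF and 2.81, 2.09 and 1.62 at 10 DAF. Pods had 32.2, 49.4 and 49.5 at 20 DAF and 7.35, 11 and 6.9 at 10 DAF, a clear separation in both tissues. OPR2 (Phvul.002G042900), a reductase of oxophytodienoic acid, had 5.97, 4.55 and 7.07 in grain at 20 DAF and 23.2, 52.1 and 88.3 at 10 DAF. In pods it had 30.9, 29.5 and 17.8 at 20 DAF and 10.2, 4.47 and 7.43 at 10 DAF.

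The 120 genes that rose alike had a median grain change of 1.70, a median pod change of 1.72 and a median tissue difference of -0.03. All 3 values follow from the rule. They include enzymes of vitamin E synthesis, tyrosine and chlorophyll breakdown, vacuolar and papain-type proteases, nitrate and amino acid transporters and wall-building enzymes. With values as deposited 115 of the 120 still had positive changes in both tissues and 17 met the rule, and without the pod 10 DAF library c1 57 did. The highest library of pods at 20 DAF was replicate 1 for 67.5% of the 120 genes, against 31.7% of all genes tested.

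VTE4 (Phvul.011G017200), the methyltransferase that makes alpha-tocopherol, was at 392, 282 and 151 scaled TPM in grain at 20 DAF and 3.6, 2.73 and 6.71 in grain at 10 DAF. Pod levels were 1580, 287 and 293 at 20 DAF and 8, 14.2 and 41 at 10 DAF. Both tissues rose without overlap, by 5.66 in grain and 4.83 in pods, and the tissue difference was 0.82 with a 95% interval of -1.34 to 2.99. The interval is wide, and the changes need not be equal. HGO (Phvul.011G148800), which breaks down homogentisate, the tyrosine-derived head group of tocopherols, rose by 1.70 in grain and 1.31 in pods. PAO (Phvul.011G086700), the pheophorbide oxygenase of chlorophyll breakdown, rose by 1.60 and 1.53.

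SSL4 (Phvul.009G226600), a strictosidine synthase-like gene, was at 17.8, 27.8 and 37.1 in grain at 20 DAF and 0.77, 0.892 and 1.98 at 10 DAF. Pods had 27, 16.4 and 15.6 at 20 DAF and 0.686, 0.322 and 0.136 at 10 DAF. Grain and pod libraries overlapped in level at 20 DAF (tissue difference -0.21, 95% interval -1.22 to 0.79). MIOX1 (Phvul.010G143500), which oxidises myo-inositol to the wall precursor glucuronate, was at 164, 98.4 and 60.3 in grain at 20 DAF and 4.73, 5.33 and 7.94 at 10 DAF. The pod libraries held 74.7, 68.6 and 28.5 at 20 DAF and 3.26, 4.41 and 4.26 at 10 DAF. The cytochrome P450 gene CYP93D1 (Phvul.007G257500) rose by 4.18 in grain and 4.30 in pods, although pods held more of it at both stages.

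Individual proteases rose in both tissues. On the list of 22 cysteine proteases and vacuolar processing enzymes as a whole, 1 rose and 1 fell in grain, and 4 rose in pods. RD19 (Phvul.009G013600), a papain-type cysteine protease induced by drought in Arabidopsis, was at 409, 529 and 717 in grain at 20 DAF and 132, 40.2 and 109 at 10 DAF. Pods had 2540, 578 and 1280 at 20 DAF and 150, 278 and 206 at 10 DAF, and the stages did not overlap in either tissue. Gamma-VPE (Phvul.001G033500), a vacuolar processing enzyme, rose by 2.41 in grain and 2.33 in pods, and metacaspase 9 (Phvul.001G101400) by 2.15 and 3.07. Transport genes included NRT1.7 (Phvul.003G070500, 1.62 in grain and 1.94 in pods), which moves stored nitrate out of old leaves in Arabidopsis. The amino acid permease AAP7 (Phvul.006G061500) rose by 1.20 and 1.80. For walls, the secondary wall cellulose synthase IRX3 (Phvul.003G154600) rose by 1.63 in grain and 2.12 in pods. The lignin gene FAH1 (Phvul.002G111900) rose by 2.84 and 3.11, but it kept its class in 1 of the 12 fits that left out a library.

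The 339 genes that fell alike had a median grain change of -1.91 and a median pod change of -1.78. They held 22 core histone, 7 cell cycle and replication, 4 light-harvesting and 3 expansin genes of the lists, so most of the 339 lie outside these lists. All 339 had negative changes in both tissues with values as deposited too, and 157 met the rule. That setting lowers the grain changes of genes in general, so the negative sign in grain was favoured by it. Pod 10 DAF c1 was the highest of its group for 61.4% of them, against 31.9% of all genes tested, and without it 183 kept the class. In bulk tissue, fewer cells of a type and less RNA per cell cannot be told apart.

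Core histones, which package newly copied DNA, gave 22 of the 339 genes out of 45 on their list, where 1.73% of all genes tested fell alike. A histone H4 gene (HIS4, Phvul.006G066400) was at 22.3, 51 and 65.3 scaled TPM in grain at 20 DAF and 373, 437 and 340 in grain at 10 DAF. Its values in pods were 0.755, 9.73 and 9.79 at 20 DAF and 101, 76.5 and 46.9 at 10 DAF. The decrease was without overlap in both tissues, by -3.15 in grain and -3.62 in pods on the log2 scale. Over the list, 35 of 45 fell in grain and 30 in pods, and 1 rose in grain. The exception, Phvul.011G087500, was at 31.9, 61.9 and 26.2 in grain at 20 DAF and 0.955, 2.87 and 2.62 at 10 DAF, and did not exceed 0.0658 in any pod library. The summed histone level was 5758 to 7971 in grain at 20 DAF, against 17170 to 21630 in grain at 10 DAF, and 2815 to 3091 in pods at 20 DAF, against 3943 to 7250 in pods at 10 DAF.

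Some expansins fell in both tissues. Of 23 on the list, 10 fell and 2 rose in grain, 6 fell and 1 rose in pods, and 3 fell alike. EXPA4 (Phvul.011G063800), an expansin that loosens growing walls, was at 2.65, 5.56 and 3.42 in grain at 20 DAF and 166, 67.5 and 55.9 at 10 DAF. Pods had 2.5, 2.26 and 9.37 at 20 DAF and 139, 31 and 48.8 at 10 DAF. Grain and pod libraries overlapped in level at each stage (tissue difference -0.57, 95% interval -2.44 to 1.30). The endoglucanase GH9B1 (Phvul.002G318800) was at 0.339, 4.53 and 0.894 in grain at 20 DAF and 91.2, 88.8 and 56.7 at 10 DAF. In pods it was at 1.03, 0.773 and 10.1 at 20 DAF and 79.2, 51.3 and 59.5 at 10 DAF. Pod replicate 3 lay above the other 2 pod libraries at 20 DAF, and the class was lost in 4 of the 12 fits that left out a library. EXPA15 (Phvul.004G030500) fell by 3.52 in grain and by 3.00 in pods, and the cyclin CYCD3;1 (Phvul.001G024900) by 2.43 and by 1.74.

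Light-harvesting genes fell in both tissues, 23 of 33 in grain and 21 in pods, but only 4 of them alike. LHCB1.3 (Phvul.002G154500), a chlorophyll-binding antenna protein of photosystem II, was at 0, 0.155 and 0.572 in grain at 20 DAF and 22.5, 22.8 and 23.9 at 10 DAF. The pod had 3.52, 2.72 and 9.82 at 20 DAF and 499, 66.1 and 220 at 10 DAF. Levels were far higher in young pods than in young grain, yet the decreases were 4.30 in grain and 5.10 in pods on the log2 scale. Another gene of the same description (Phvul.002G196400) was at 43.4, 53.2 and 112 in grain at 20 DAF and 1750, 2690 and 1820 at 10 DAF, and at 2080, 785 and 2730 in pods at 20 DAF and 6920, 3530 and 11100 at 10 DAF. It fell further in grain than in pods (tissue difference -3.01 ± 0.77, limma adjusted p = 0.019, and 0.0541 without grain 20 DAF replicate 1). HEMA1 (Phvul.008G185100), the glutamyl-tRNA reductase that starts chlorophyll synthesis, fell by 3.06 in grain and by 3.23 in pods.

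Among the other genes of the class, BGLU17 (Phvul.005G039200), a beta-glucosidase, was at 1.77, 1.79 and 3.49 in grain at 20 DAF and 59.8, 50.4 and 54.1 at 10 DAF. Pods had 0.0532, 0.161 and 0.672 at 20 DAF and 51.1, 10.9 and 13.1 at 10 DAF, below grain in all libraries at 20 DAF. ALDH3F1 (Phvul.L009143), an aldehyde dehydrogenase, fell by 3.19 in grain and by 3.20 in pods, the closest agreement among the 16 genes named by the rule.

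**Figure D3:**
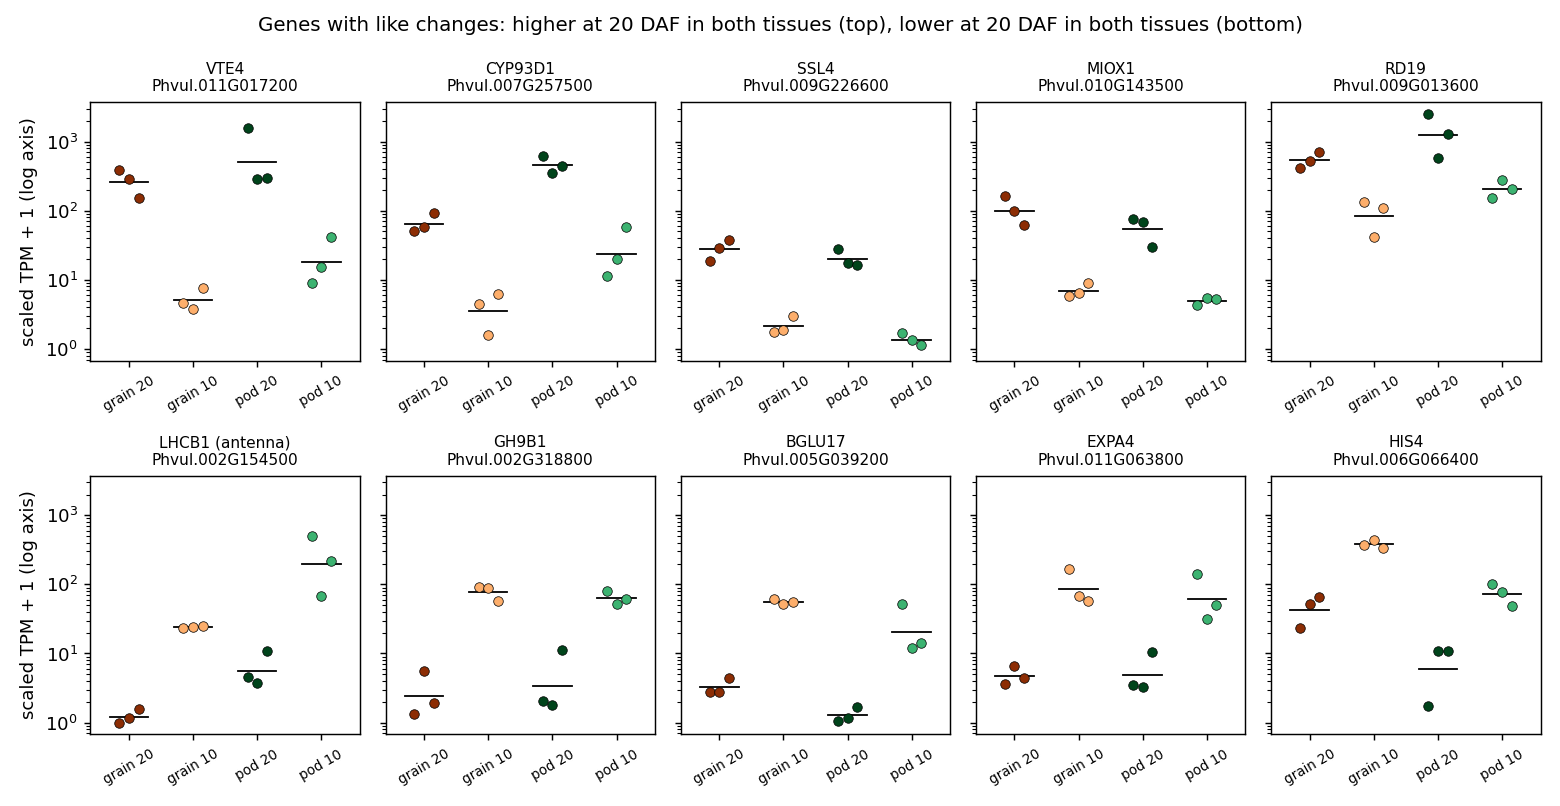
Scaled TPM + 1 (log axis) of 10 genes in the 12 libraries, by group from grain at 20 DAF to pod at 10 DAF; points are libraries and bars the mean on the log scale. The top row holds genes that rose in both tissues and the bottom row genes that fell in both, with no overlap between stages.

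Most of the largest tissue differences outside the opposite classes came from genes with a called change in grain only. Among the genes the rule took here, the dirigent-like gene Phvul.010G063900 was called in pods only. For Phvul.009G211100 neither change was called, and it kept its class in 2 of the 12 fits that left out a library. LEA4-5 (Phvul.001G142000), a protein that protects drying seed cells, was at 49100, 22000 and 8770 in grain at 20 DAF and 2.47, 11.2 and 8.11 at 10 DAF. It did not exceed 5.12 in any pod library, and its tissue difference of 11.80 ± 0.92 was the largest of all (limma adjusted p = 1.41e-05). On the downward side, the purine permease PUP4 (Phvul.009G245400) was at 0.57, 0.0662 and 1.12 in grain at 20 DAF and 383, 602 and 477 at 10 DAF, and did not exceed 0.445 in any pod library. CYP78A5 (Phvul.003G041200), known as KLU in Arabidopsis and for promoting organ and seed size, was at 1.41, 2.05 and 3.87 in grain at 20 DAF and 386, 448 and 264 at 10 DAF. Its tissue difference was -6.41 ± 0.48, and pod values did not exceed 1.15. GDH2 (Phvul.003G225100), a glutamate dehydrogenase, fell to 0.401, 0.74 and 1.26 in grain at 20 DAF, against 135, 201 and 151 at 10 DAF.

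Pods alone carried other large differences. The laccase gene LAC4 (Phvul.008G107100), of a family that polymerises lignin, was at 38.1, 28.7 and 49.4 in pods at 20 DAF and 0.0396, 2.01 and 0.452 at 10 DAF, and did not exceed 0.348 in grain. Its tissue difference was -4.65 ± 0.49 (limma adjusted p = 0.000136). UPS2 (Phvul.003G042700), a transporter of ureides, the nitrogen form that nodulated beans ship, was at 56.8, 12.5 and 8.01 in pods at 20 DAF and 0.164, 0.177 and 0.536 at 10 DAF. Grain held it at 130, 102 and 127 at 20 DAF and 86, 64.5 and 90.8 at 10 DAF, with no called change. LOX2 (Phvul.011G056500), a plastid lipoxygenase, rose to 312, 119 and 451 in pods at 20 DAF, against 13.9, 8.01 and 39.2 at 10 DAF. Downward, the sucrose synthase SUS4 (Phvul.003G127500), which cleaves imported sucrose, was at 89.9, 164 and 179 in pods at 20 DAF and 1310, 762 and 1120 at 10 DAF. In grain SUS4 was at 1150, 939 and 1090 at 20 DAF and 709, 1050 and 1460 at 10 DAF, so the called change was that of the pod.

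Lists of genes were read from the deposited descriptions and are given by counts beside those of all genes, of which 7.58% had a higher and 10.7% a lower tissue difference. Lists of seed reserves and of desiccation proteins led on the higher side. All 8 storage cupins and 20 of 25 LEA and dehydrin genes had a higher tissue difference, with medians of 8.93 and 5.81, and none was called in pods. These medians kept their sign under every scaling tried. Of 29 abscisic acid genes, 12 had a higher and 2 a lower tissue difference and 15 rose in grain. That direction turned with values as deposited, where 4 were higher and 9 lower. Of 11 seed maturation regulators, 5 were higher and 3 lower although the median was -0.75. On values as deposited 2 were higher and 5 lower, and leaving out the 50 most abundant genes gave 4 and 4. Protease inhibitors had 9 higher and 1 lower of 23, and 5 higher and 2 lower with values as deposited. Of 18 lipoxygenases, 6 were higher and 3 lower. Their median of 0.54 turned to -0.022 with values as deposited. Among them was LOX1 (Phvul.005G157000) with 2680, 2590 and 2470 in grain at 20 DAF and 3.38, 9.25 and 13.6 at 10 DAF. Lipid-transfer and 2S albumin genes divided into 12 higher and 21 lower of 69, with a median of 0.94 of the opposite sign, and 19 of them fell in pods. Starch synthesis genes numbered 4 higher and 1 lower of 13, and 1 higher and 4 lower with values as deposited.

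Lists of photosystem, carbon fixation, light-harvesting, cell cycle, tubulin and ribosomal protein genes had more lower than higher tissue differences and more decreases in grain than in pods. Expansins did so too, with 3 higher and 7 lower of 23, 10 falling in grain and 6 in pods. The core histone, xyloglucan and pectin lists did not have more lower than higher tissue differences. Core histones had 4 higher and 3 lower of 45, and xyloglucan remodelling genes 4 and 3 of 23, with 1 falling in grain and 5 in pods. Pectin modification genes had 8 higher and 8 lower of 61, with 12 falling in grain and 16 in pods. These counts depend on the scaling. With values as deposited, pectin genes had 6 higher and 17 lower, with 35 falling in grain and 13 in pods. Their median tissue difference turned from 0.36 to -0.52. Core histones then had 1 higher and 23 lower, and xyloglucan remodelling genes 3 and 8. Of 57 photosystem core genes, 21 had a lower and none a higher tissue difference, 38 fell in grain and 8 in pods. Carbon fixation genes fell in grain for 8 of 12 and in pods for none, with 6 lower tissue differences. FBA2 (Phvul.011G039100), a fructose-bisphosphate aldolase of the plastid, was at 2.35, 4.67 and 7.59 in grain at 20 DAF and 122, 161 and 140 at 10 DAF. Pods held it at 2210, 1370 and 2410 at 20 DAF and 1060, 834 and 2830 at 10 DAF, an overlap with no called change. Of 33 light-harvesting genes, 23 fell in grain and 21 in pods, with 4 higher and 6 lower tissue differences. Cell cycle and replication genes had 17 lower and 1 higher of 64, with 47 falling in grain and 10 in pods. Tubulin and kinesin genes had 21 lower and 3 higher of 70, and ribosomal protein genes 51 lower and 4 higher of 337, with 174 falling in grain and 5 in pods. For the 6 lists named first in this paragraph, the median tissue difference and the median grain change stayed negative under the other scalings. These were values as deposited, the 50 most abundant genes left out and quantile normalization. The pod median of the carbon fixation list was -0.0223 and turned to 0.151, 0.12 and 0.141 under those settings.

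**Figure D4:**
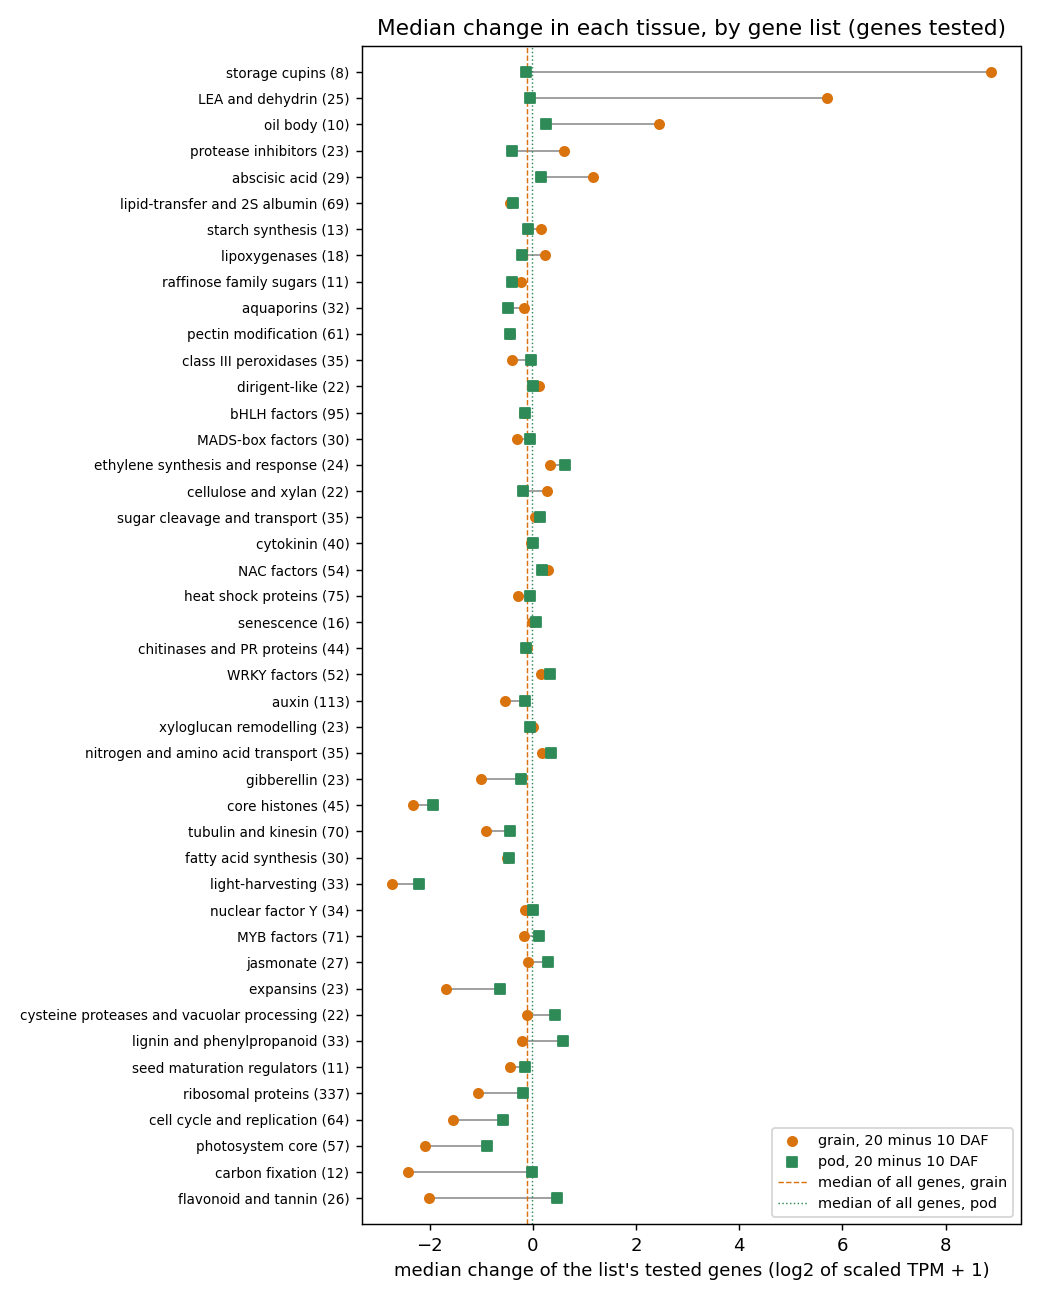
Median log2 change from 10 to 20 DAF in grain and in pods for each of 44 gene lists, with a line joining the 2 tissues, ordered by the median tissue difference; list sizes are in the labels. Storage cupins and LEA genes stand far to the right in grain only, and with values as deposited the median tissue difference of 11 of the 44 lists changed sign.

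Hormone and defence lists gave mixed counts. Gibberellin genes had a called tissue difference in 13 of 23, which is 56.5%, with 5 higher and 8 lower. Auxin genes had 7 higher and 18 lower of 113, and jasmonate genes 1 higher and 7 lower of 27. Cytokinin genes had 1 higher and 1 lower of 40, ethylene genes 1 higher of 24, and cysteine proteases 1 lower of 22. These are shares of 5%, 4.17% and 4.55%, under the 18.3% of all genes tested, but they depend on the scaling. As deposited, 17 of the 22 cysteine proteases, 16 of the 40 cytokinin genes and 5 of the 24 ethylene genes had a lower tissue difference, and the ethylene median was -1.19 in place of 0.028. With quantile normalization the cytokinin genes had 5 higher and 1 lower. Flavonoid and tannin genes had 1 higher and 4 lower of 26 and a median of -2.71, and 9 fell in grain. The flavonoid sum in pods at 20 DAF was 3540 scaled TPM in replicate 2, against 94.4 and 149.8 in replicates 1 and 3. The same library held the highest pod sums of dirigent-like genes (2363, against 86.2 and 174) and of lignin and phenylpropanoid genes (2011, against 479 and 749.6 at 20 DAF). A dirigent-like gene with a lower tissue difference (Phvul.010G063900) had 6.01, 205 and 14.9 in pods at 20 DAF and 0.277, 0.6 and 0 at 10 DAF. Its tissue difference was -6.69, and -5.22 without pod 20 DAF replicate 2. Which of its changes were called differed without that library and also without replicate 1.

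Transport and transcription factor lists were divided as well. Nitrogen and amino acid transport genes had 4 higher and 7 lower of 35, with 6 rising in grain and 8 in pods. As deposited, 2 rose and 13 fell in grain, and the grain median was -0.61 in place of 0.18. AAP3 (Phvul.009G128600), an amino acid permease, was at 445, 231 and 190 in grain at 20 DAF and 1.78, 0.754 and 1.47 at 10 DAF, while pods had 3.12, 8.06 and 7.42 at 20 DAF and 14.5, 11.4 and 2.95 at 10 DAF. Only the grain change of AAP3 was called. Of 52 WRKY factors, 6 rose in grain and 6 in pods, and of 54 NAC factors 9 rose in grain and 8 in pods. The grain medians of both lists turned downward with values as deposited. MYB factors had 8 higher and 15 lower of 71. MYB118 (Phvul.004G011400), an endosperm factor in Arabidopsis, was at 0.103, 0.958 and 0.234 in grain at 20 DAF and 13.4, 7.67 and 11.1 at 10 DAF and was listed at 0 in all pod libraries.

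The libraries at 15 DAF, which took no part in choosing the genes, lay between the others for most of them. The genes were chosen for a gap between 10 and 20 DAF, which by itself makes a value in between likely. The share over all genes was not counted, so these counts are a description only. For the 82 genes up in grain and down in pods, the 15 DAF mean was between the 10 and 20 DAF means for 72 genes in grain and 71 in pods. A median of 57.1% of the change was reached by then in grain and 62.3% in pods. For the 46 reverse genes the median share was 76.1% in grain and 48.9% in pods, and 37 and 39 genes lay between. Genes up alike had reached 52.4% in grain and 63.2% in pods, and genes down alike 57.7% in grain and 64.1% in pods. Pod replicate 3 at 15 DAF had a deposited TPM sum of 436072.1, under that of any other library. Without it the pod shares were 61.8%, 53.1%, 74% and 66.5% for the 4 classes in the same order. The median level of the 82 genes, in log2 of scaled TPM + 1, was 3.52 to 3.74 in grain libraries of 10 DAF, 4.85 to 5.31 in those of 15 DAF and 5.55 to 6.70 in those of 20 DAF. For pod libraries it was 3.76 to 4.45 (10 DAF), 2.72 to 2.95 (15 DAF) and 1.80 to 2.37 (20 DAF), so the libraries of neighbouring stages did not overlap in either tissue.

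**Figure D5:**
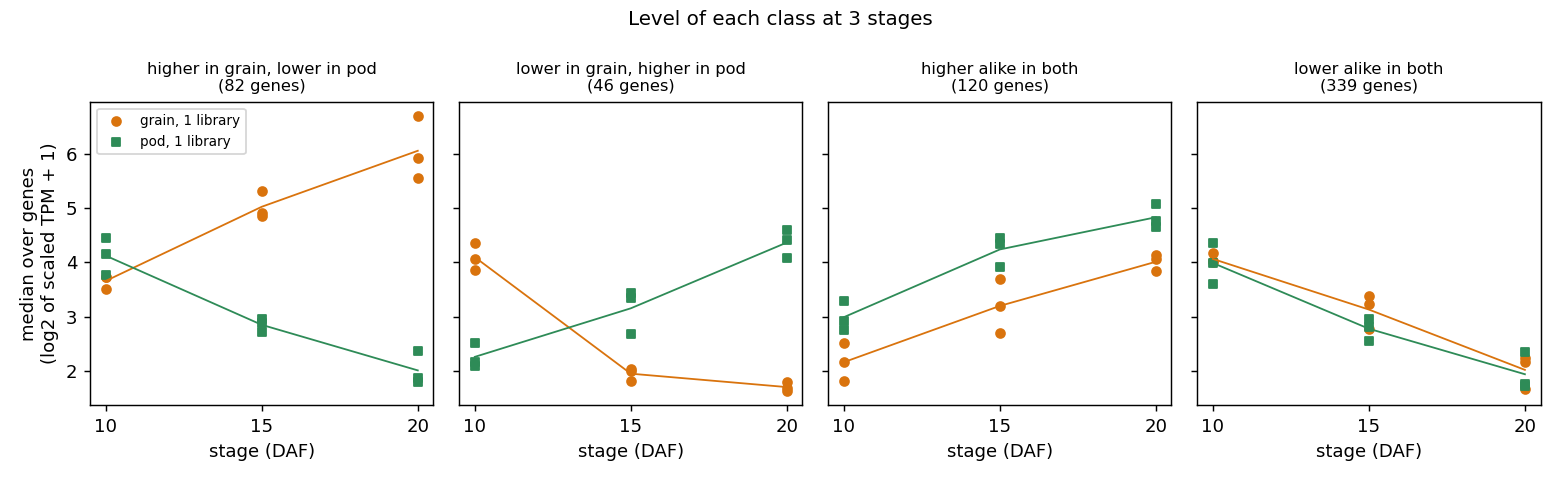
Median log2 of scaled TPM + 1 over the genes of each class, in each library of grain and pod at 10, 15 and 20 DAF, with 1 panel per class and lines through the means of the libraries. In the opposite classes the tissues change places between 10 and 20 DAF, with the 15 DAF libraries between them.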

How the data were processed

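The authors deposited expression as TPM in 1 table of 27420 genes, 4644 of them without a description. RNA was isolated with TRIzol, and a SMARTER mRNA kit gave the libraries, per the labels' protocols. Aligner, counting tool and build were not given in the sources used here. Read depth cannot be taken from TPM and is unknown, and no counting interval is printed. Columns for pods at 10 DAF carry numbers that differ from the titles, so they were assigned to their group only and are called c1, c2 and c3.

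Libraries were scaled by median ratios to gene-wise geometric means, taken from 11489 genes above 1 TPM in all 12. A pseudocount of 1 was added before taking log2 of the values the authors deposited, so folds of low genes are understated. Genes that reached 1 TPM in 3 or more libraries were fitted in limma 3.58.1 (R 4.3.3) as 4 group means. The moderation followed the trend of variance with level, on 8 residual degrees of freedom. P-values were adjusted by Benjamini-Hochberg over all 19573 genes, and a call needed an adjusted p under 0.05 with a log2 size of 1 or more. The steps were tested on simulated data with planted opposite changes, split evenly between the tissues. The tissue difference was called for 41 of 100 genes with a planted size of 1.5 in log2. For a size of 3 it was called for 84 of 100. None had the wrong sign, and 4 unchanged genes were called. All other genes were unchanged there and the class calls were not tried, so these rates need not hold here. Figures were drawn in matplotlib 3.10.9 with Python 3.11.15.

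Opposite classes needed the grain change, the pod change and the tissue difference to be called. Alike classes needed both changes called the same way and a tissue difference under 1 in size. The 44 gene lists are search patterns on the deposited descriptions. The comparison, the classes and the lists were chosen with earlier results of these data known. Genes were named among described genes with at least 20 scaled TPM in the highest group and no overlap of stages. From each opposite class the rule took the 10 largest tissue differences, from the other called genes the 6 largest each way, and from each alike class the 8 with the largest smaller change. It also took, for each list, the called members with the largest tissue difference each way and the most abundant member. Other members were named after their values were seen. Gene identifiers matched no entry of the reference gene table, so no coordinates or sequences are given.

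The other settings tried were a pseudocount of 0.1, no filter, a filter at 5 TPM, values as deposited, the 50 most abundant genes left out, no minimum difference, a fit on all 18 libraries, a replicate block on the grain numbers, moderation without the trend and each library left out in turn. Quantile normalization was chosen after seeing the data.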

Additional observations from a re-analysis of the deposited data

Results flagged for a closer look

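The genes in this section stand out because grain and pods changed in opposite directions between 10 and 20 DAF and the difference itself passed the limma test across all genes. They are the largest 10 of each direction under the naming rule, which also required that libraries of the stages do not overlap in either tissue, so both their size and the lack of overlap are results of the choice.

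Upward in grain and downward in pods, the tissue difference (log2, grain change minus pod change) was 11.15 for the Kunitz-type inhibitor Phvul.004G129600, 10.26 and 8.38 for the dirigent-like genes Phvul.005G032600 and Phvul.005G032500, and 9.61 for the Rossmann-fold gene Phvul.011G061300. It was 8.84 for DSI-1VOC (Phvul.011G065500), 8.83 for the oleosin gene Phvul.008G144500 and 8.79 for the lipid-transfer or 2S albumin gene Phvul.008G113900. It was 8.77 for TINY2 (Phvul.001G073800), 8.55 for ADH1 (Phvul.001G067300) and 8.15 for the gibberellin-regulated gene Phvul.001G025800. The Rossmann-fold gene kept its class in 4 of 12 fits without a library and the albumin gene in 7, while the other 8 kept it in all 12. Of all 82 genes of the class, 27 kept it in all 12.

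Downward in grain and upward in pods, it was -8.08 for IAGLU (Phvul.001G265400), -7.72 for UGT73B3 (Phvul.002G054100), -7.55 and -7.40 for the MATE genes Phvul.003G064300 and Phvul.009G034100, and -5.90 for Phvul.006G168600 of unknown function. It was -5.85 for ZIFL1 (Phvul.011G189900), -5.18 for GA2OX1 (Phvul.005G061000) and -5.02 for UGT88A1 (Phvul.004G104100). It was -4.99 for the GroES-like dehydrogenase Phvul.011G018000 and -4.79 for the flavin-binding monooxygenase Phvul.002G061500. Of these, GA2OX1 kept its class in 3 of 12 fits without a library, IAGLU in 8 and the MATE gene Phvul.003G064300 in 11, and the other 7 in all 12. Of all 46 genes of the class, 18 kept it in all 12.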

How the results depend on the processing

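Of the settings tried, scaling moved the called tissue differences and grain changes most. With values as deposited, 11316 genes had a called tissue difference and 10939 a called grain change, while 24 genes rose in grain and fell in pods, 196 did the reverse and 31 rose alike. By construction that setting keeps the lower scale of the grain 20 DAF libraries. Under it the tissue difference of the histone gene Phvul.001G253700 turned to -1.133 and that of the endoglucanase gene Phvul.006G133700 to -0.07849. With a pseudocount of 0.1 TPM 72 genes fell in grain and rose in pods, and with no minimum difference 70; the cause was not tested. With 1 library left out, the called tissue differences ranged over 2722 to 3879 genes, the grain changes over 3949 to 4943 and the pod changes over 1262 to 2783. The genes up in grain and down in pods then numbered 46 to 110, the reverse 30 to 54, those up alike 65 to 146 and those down alike 209 to 446. Whether equal numbers in the labels pair the grain libraries could not be settled. Deviations of libraries with the same number correlated at -0.0235, 0.194 and 0.149. Replicates 2 and 3 but not 1 correlated best with their own number. A replicate block on those numbers gave 3246 called tissue differences, 4693 grain changes, 1778 pod changes, and 71, 37, 104 and 290 genes in the 4 classes. Pods could not be blocked, since the columns at 10 DAF carry no matching number. The depth behind each TPM value is unknown, so the precision of low genes cannot be stated.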
